A study of Danio rerio with 6 samples.

Results

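Transcripts that both adult zebrafish gonads held at a high level and that the mature egg nearly lacked were few. They were defined as features at 20 FPKM or more in all 4 testis and ovary libraries and under 1 FPKM in both oocyte libraries, with no value above 10000 FPKM and with 6 connective tissue matrix genes left out. FPKM counts the sequenced fragments of a transcript per kilobase of its length, relative to the size of the library. Of 32253 features, 3 met this rule. They were EARS2 (ENSDARG00000103099), wu:fj16a03 (ENSDARG00000100952) and ENSDARG00000100659, which has no symbol in the name table used. The rule reads every library, so the levels below describe how the members were chosen and no test of an organ against the oocyte was made.

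The libraries came from wild-type adult fish of the TLAB strain, 2 from dissected whole testis, 2 from dissected whole ovary and 2 from mature oocytes pressed out of females. All 3 groups share that genotype and strain. The labels give neither the number of fish nor whether the replicates of a tissue came from different fish, so the spread between replicates may be technical. Read numbers are not given, and the depth behind each value is therefore unknown.

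A mature egg carries RNA that was stored while the oocyte grew, and it makes little new RNA before fertilisation. A whole ovary holds oocytes of many stages together with follicle cells, connective tissue, vessels and blood. A whole testis holds spermatogenic cells, Sertoli cells and hormone-producing Leydig cells. In such bulk samples, fewer cells of a type and less RNA per cell cannot be told apart.

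Markers of the labelled tissues and of blood were checked. The meiotic chromosome gene SYCP3 had 68.4 and 63.8 FPKM in testis, 0.27 and 0.356 in ovary, and 0.521 and 0.438 in oocyte. The egg coat gene zp3b had 6.87 and 6.89 FPKM in testis, 1609 and 2445 in ovary, and 52.7 and 34.4 in oocyte. Another egg coat gene on the same list, zp2.1, went the other way and was listed at 0 in both ovary libraries. Its values were 1.06 and 0.797 FPKM in testis and 10.2 and 4.89 FPKM in oocyte. The 7 red blood cell genes measured summed to 28.5 and 89.3 FPKM in testis, 2.95 and 7.04 in ovary, and 0.699 and 0.457 in oocyte. The sums were higher in replicate 2 of both organs, and most of the testis difference was hbaa1, an alpha globin gene, with 16.4 and 73.9 FPKM in testis, whereas cahz, a carbonic anhydrase gene, had 5.7 and 4.37 FPKM there.

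The 2 thresholds together removed almost every feature. At 20 FPKM or more, 1352 features passed in both testis libraries, 2800 in both ovary libraries and 904 in all 4. Of those 904, 11 exceeded 10000 FPKM in some library, and none was among the 6 matrix genes. Among the remaining 893, the median of the mean oocyte level was 90.1 FPKM and the lower quartile was 25.1 FPKM. Only 44 of the 893 had a mean oocyte level under 5 FPKM. Abundant transcripts of both organs were therefore mostly abundant in the oocyte as well.

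Seen from the oocyte, 20910 features were under 1 FPKM in both oocyte libraries. Of these, 179 reached 20 FPKM in both testis libraries, and their median ovary level was 0.374 FPKM, with 124 under 1 FPKM. In the ovary libraries 24 reached 20 FPKM, and their median testis level was 2.25 FPKM, with 8 under 1 FPKM. The 3 members are the overlap, which is 1.68% of the testis list and 12.5% of the ovary list. Over all 32253 features, 2800 reached 20 FPKM in both ovary libraries and 1352 in both testis libraries. With 3 features in the overlap, nothing is read from either percentage. Under the same thresholds, 66 features were high in ovary and oocyte and scarce in testis, and 5 were high in testis and oocyte and scarce in ovary.

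**Figure D1:**
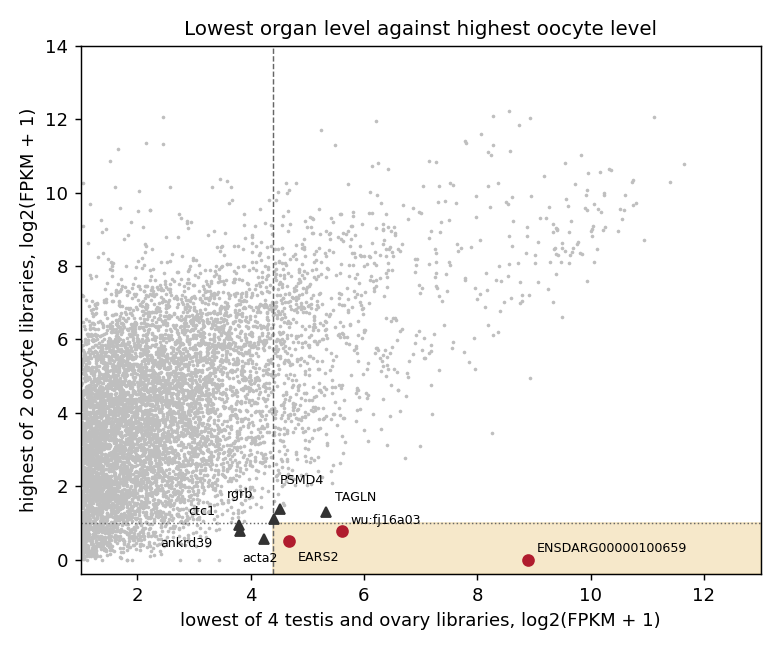
Each point is a feature, with the lowest of the 4 testis and ovary libraries on the x axis and the highest of the 2 oocyte libraries on the y axis, both as log2(FPKM + 1); features at 1 FPKM or more in all 4 organ libraries and not above 10000 FPKM are drawn. The shaded corner is the region of the rule, dashed and dotted lines mark 20 and 1 FPKM, red circles are the 3 members and black triangles the 6 features nearest outside.

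EARS2 is the mitochondrial glutamyl-tRNA synthetase, which attaches glutamate to transfer RNA inside mitochondria so that the proteins encoded by mitochondrial DNA can be made. It had 24.5 and 27 FPKM in the testis libraries, 36.6 and 36.6 FPKM in the ovary libraries, and 0.419 and 0.406 FPKM in the oocyte libraries. On the deposited scale the ovary libraries were highest, the testis libraries lay below them without overlap, and the oocyte libraries were far below both. The rule fixed the gap between the oocyte and both organs. The order of the organs depended on the scaling, as given below. Mean levels were 25.7 ± 1.78 FPKM in testis, 36.6 ± 0.0034 FPKM in ovary and 0.412 ± 0.0096 FPKM in oocyte (SD, n = 2 each). The testis mean was 62.4 times and the ovary mean 88.7 times the oocyte mean. The replicates of EARS2 were close. Among the 2786 features at 20 FPKM or more in both ovary libraries and at no more than 10000 FPKM in any library, 2784 had a larger ratio between the ovary replicates.

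The symbol wu:fj16a03 marks a protein-coding gene in RefSeq, and no role is given for it here. It had 47.7 and 67 FPKM in the testis libraries, 108 and 122 FPKM in the ovary libraries, and 0.407 and 0.715 FPKM in the oocyte libraries. On the deposited scale the order was that of EARS2, with no overlap between any of the groups. For wu:fj16a03 too, the rule fixed the gap to the oocyte, and the order of the organs depended on the scaling. Means were 57.4 ± 13.6 FPKM in testis, 115 ± 10.5 FPKM in ovary and 0.561 ± 0.218 FPKM in oocyte (SD, n = 2 each). The testis mean was 102 times and the ovary mean 205 times the oocyte mean. Counted from the highest of all features, it ranked 624 and 547 in testis, 639 and 667 in ovary, and 12668 and 11489 in oocyte.

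ENSDARG00000100659 was the most abundant member. It had 1448 and 2078 FPKM in the testis libraries and 473 and 3884 FPKM in the ovary libraries, and it was listed at 0 in both oocyte libraries. The ovary replicates lay on either side of both testis replicates, so the organs could not be put in order. The ratio of 8.22 between its ovary replicates was the largest among those 2786 features, whose median ratio was 1.19. Its testis replicates differed by a ratio of 1.44, against a median of 1.24 over the 1337 features chosen likewise in testis. Its ranks from the highest were 52 and 49 in testis, and 212 and 22 in ovary.

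A listed 0 may be a value that the quantification could not estimate. Of all 32253 features, 8425 were listed at 0 in both oocyte libraries. In 37 features, 1 oocyte library was listed at 0 while its replicate had 10 FPKM or more. ENSDARG00000100659 was the single feature listed at 0 in both oocyte libraries and at 100 FPKM or more in all 4 organ libraries. No fold against the oocyte is given for it, and without a stated length its level cannot be read as a number of molecules.

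In both organs ENSDARG00000100659, the member with the unequal replicates, was higher in replicate 2. So was wu:fj16a03, with 47.7 and 67 FPKM in testis and 108 and 122 FPKM in ovary. EARS2 was higher in replicate 2 of testis alone. The direction is therefore not particular to ENSDARG00000100659. Transcripts of the exocrine pancreas were also higher in replicate 2 of both organs. The pancreas lies beside the gut and makes digestive enzymes such as the trypsins prss1 and prss59.1. The list of 13 enzyme symbols, chosen after values were seen, matched 16 features. They summed to 221 and 647 FPKM in the testis libraries, 16.6 and 210 FPKM in the ovary libraries, and 7.45 and 1.44 FPKM in the oocyte libraries. In testis and in ovary, 16 of 16 were higher in replicate 2, and 4 were listed at 0 in oocyte replicate 2. The share of all features higher in replicate 2 is not given here, so the count has no background beside it. The part of such RNA in the level of ENSDARG00000100659 was not tested. None of the 16 reached 20 FPKM in both ovary libraries.

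**Figure D2:**
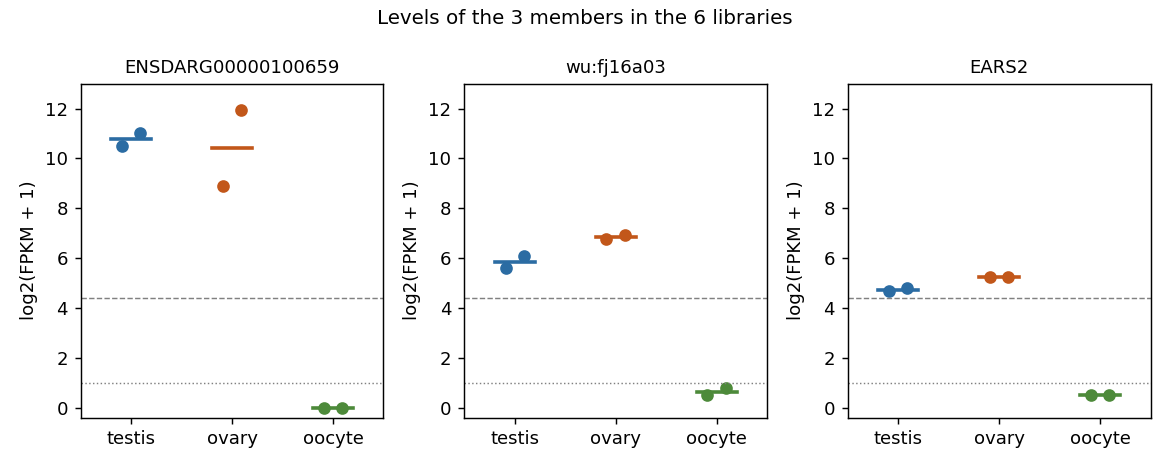
Each panel shows 1 member as log2(FPKM + 1) in testis, ovary and oocyte, with a point per library (replicate 1 left, replicate 2 right) and a bar at the mean of the log values; dashed and dotted lines mark 20 and 1 FPKM. ENSDARG00000100659 has ovary replicates of 473 and 3884 FPKM, whereas those of EARS2 lie at 36.6 FPKM.

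The features nearest outside each threshold were read off in the same way. Those under 1 FPKM in the oocyte that came closest to 20 FPKM were acta2, ankrd39 and ctc1. The smooth muscle actin gene acta2 had 65.4 and 74.5 FPKM in testis, 17.8 and 24.5 FPKM in ovary, and 0.485 and 0.227 FPKM in oocyte, and missed by ovary replicate 1 alone. The lowest organ values of ankrd39 and ctc1, a telomere maintenance gene, were 13 and 12.8 FPKM. Those at 20 FPKM or more in both organs that came closest to 1 FPKM in the oocyte were rgrb, TAGLN and PSMD4. TAGLN (ENSDARG00000045408), which encodes the actin-binding protein transgelin of smooth muscle, had 328 and 615 FPKM in testis, 39.5 and 61 FPKM in ovary, and 1.45 and 0.893 FPKM in oocyte. The highest oocyte values of rgrb and of PSMD4, a ubiquitin receptor of the proteasome, were 1.14 and 1.6 FPKM. Both acta2 and TAGLN are on the smooth muscle and cytoskeleton list, whose other genes did not share a direction. Higher in each oocyte library than in any organ library were myl6, tpm1, TPM2, flna and ZYX. The gene flna had 29.8 and 33.1 FPKM in testis, 60.4 and 42.9 FPKM in ovary, and 93.1 and 114 FPKM in oocyte. Lower in each oocyte library than in any organ library were tpm4a, ACTN1, cald1b, VIM (ENSDARG00000010008) and another TAGLN feature (ENSDARG00000033466). That TAGLN feature had 8.04 and 8.25 FPKM in testis, 1.23 and 1.32 FPKM in ovary, and 0.874 and 1.12 FPKM in oocyte. The rest, cald1a, CNN2, LMNA and the other VIM feature, were mixed. Just inside, the lowest organ values were 24.5 FPKM for EARS2, 47.7 FPKM for wu:fj16a03 and 473 FPKM for ENSDARG00000100659.

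The ratio of the lowest organ library to the highest oocyte library was larger in the members than in any other of the 893 features. The rule limits both of these values, so a high ratio in the members follows from their selection and is no separate evidence. The ratio was 66.7 for wu:fj16a03 and 58.4 for EARS2, which ranked 2 and 3 among the 893 features, behind ENSDARG00000100659 with its listed zeros. The next was ENSDARG00000039515 at 30.9, followed by TAGLN at 27.3. ENSDARG00000039515, singled out after its values were seen, had 307 and 381 FPKM in testis, 354 and 472 FPKM in ovary, and 9.92 and 6.96 FPKM in oocyte. It missed the rule through its oocyte level.

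No member belonged to 13 lists of marker and pathway genes. The lists were matched by symbol, so ENSDARG00000100659, which has none, could not have matched. The symbols wu:fj16a03 and EARS2 are not on the lists. Absence from the lists therefore does not show which cells the members come from. The lists cover matrix, smooth muscle, immediate early, antigen presentation, white blood cell, red blood cell, vessel, germ cell, gonadal support and steroid, lysosome, annexin, redox and lipid, and signalling genes. Of their 309 symbols, 216 matched the name table, giving 221 features. Among these, 119 were under 1 FPKM in both oocyte libraries, of which 5 reached 20 FPKM in both testis libraries and 0 in both ovary libraries. Of all 20910 features that scarce in the oocyte, 179 did so in testis and 24 in ovary. A count of 0 in ovary therefore does not set the listed features apart. The 5 were acta2, SYCP3, SYCP1, STAR and cyp11c1. In all 4 organ libraries 13 of the 221 reached 20 FPKM. Of those, TAGLN had the lowest oocyte level, and the other 12 were at 15.7 FPKM or more in each oocyte library.

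The 6 matrix genes left out by the rule would not have met it. None reached 20 FPKM in an ovary library. The collagen gene col1a1a had 12.3 and 13.3 FPKM in testis, 1.69 and 3.28 FPKM in ovary, and 2.09 and 8.7 FPKM in oocyte. The 20 of 23 white blood cell features and 15 of 16 vessel features under 1 FPKM in both oocyte libraries likewise included none at 20 FPKM in both ovary libraries. Among all 20910 features that scarce in the oocyte only 24 reached it, so this absence does not set these genes apart.

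EARS2 was set beside other genes of its pathway, chosen by symbol after the members were known and described without a test. The rule selected EARS2 for 20 FPKM or more in both organs and under 1 FPKM in oocyte. Its contrast with these genes therefore follows in part from selection and is no separate evidence. Each mitochondrial aminoacyl-tRNA synthetase serves its own amino acid. In mitochondria EARS2 also loads glutamate onto the glutamine tRNA, and the GatCAB enzyme (QRSL1, GATB and GATC) then converts it. Of 19 symbols, 17 matched a feature, 13 of them synthetases other than EARS2. The highest mean among those 13 in testis was 9.3 FPKM, and the median was 1.37 FPKM, against 25.7 FPKM for EARS2. In ovary the 13 ran between 2.39 and 45.8 FPKM with a median of 10.6 FPKM. RARS2, the arginine enzyme, was the highest at 45.8 ± 10.5 FPKM (SD, n = 2), and EARS2 at 36.6 FPKM came next.

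In oocyte the 13 synthetases ran between 0.743 and 52.6 FPKM with a median of 4.45 FPKM. A level under 1 FPKM in both oocyte libraries was seen in 1 of them, NARS2, the asparagine enzyme. It had 1.24 and 1.01 FPKM in testis, 9.64 and 10.1 FPKM in ovary, and 0.772 and 0.714 FPKM in oocyte, and so was also low in testis. None of the 13 reached 20 FPKM in all 4 organ libraries, and 5 had a higher mean in oocyte than in ovary. HARS2, assigned to histidine, was the most abundant in oocyte, with 9.88 and 8.73 FPKM in testis, 18.9 and 17.5 FPKM in ovary, and 50.9 and 54.3 FPKM in oocyte. The GatCAB subunit gene QRSL1 had 1.86 and 1.1 FPKM in testis, 16.6 and 12.8 FPKM in ovary, and 2.11 and 1.24 FPKM in oocyte. GATC had 15.5 and 11.4 FPKM in testis, 50.3 and 89.2 FPKM in ovary, and 24.1 and 7.92 FPKM in oocyte, and GATB had 0.775 and 0.547 FPKM in testis, 2.3 and 2 FPKM in ovary, and 2.38 and 1.76 FPKM in oocyte.

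**Figure D3:**
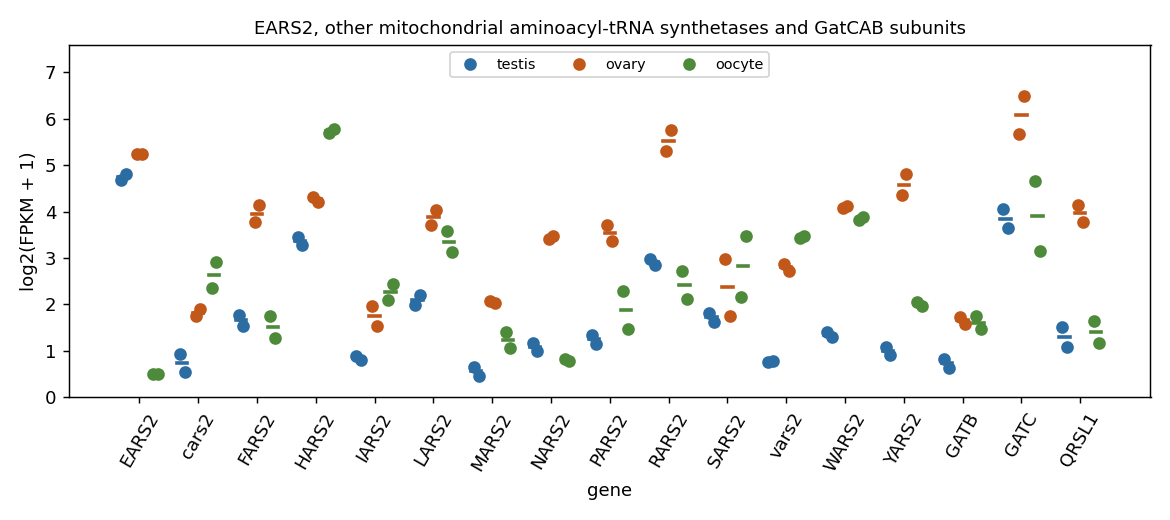
Levels of EARS2, 13 other mitochondrial aminoacyl-tRNA synthetases and 3 GatCAB subunits as log2(FPKM + 1), with a point per library and a bar at the mean of the log values, for testis, ovary and oocyte. Of the synthetases drawn, EARS2 lies highest in testis, second to RARS2 in ovary and lowest in oocyte. EARS2 was selected for high organ and low oocyte levels, so this order follows in part from the rule.

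The matched neighbours of the named members were above 1 FPKM in both oocyte libraries. With so few genes and no background share, nothing is read from this. The genes that follow EARS2 and wu:fj16a03 matched no feature. In the RefSeq order of the GRCz12tu assembly, which is not the build of the values, cdc37 precedes ears2. CDC37, a partner of the chaperone HSP90, had 38.3 and 44 FPKM in testis, 68.5 and 91.2 FPKM in ovary, and 25 and 21.4 FPKM in oocyte. The gene before wu:fj16a03 is xpo5, an exporter of microRNA precursors, which had 0.385 and 0.392 FPKM in testis, 11.1 and 11.3 FPKM in ovary, and 3.55 and 8.65 FPKM in oocyte. The gene model of fbxo9 overlaps wu:fj16a03 in that assembly. Whether reads of the pair were divided between them was not tested. The fbxo9 gene had 12.6 and 13.1 FPKM in testis, 12.9 and 12.3 FPKM in ovary, and 3.93 and 1.87 FPKM in oocyte.

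The difference between testis and ovary was not fixed by the rule, although the minimum of 20 FPKM in both limits it. It was tested with limma, a moderated linear model, on log2(FPKM + 1) over 13717 features, and calls needed a Benjamini-Hochberg adjusted p under 0.05 and organs that differed by 1 or more on this scale. All 3 members passed the filter on low values. Of them 1 was called, lower in testis. Among all features 60.2% were called, 16.4% higher and 43.8% lower in testis, so the members' count does not set them apart. The split depended on the scaling, and its majority turned only under median-of-ratios scaling. On the deposited scale 2251 features were higher and 6011 lower in testis. Under median-of-ratios scaling 3697 were higher and 3136 lower, and under quantile normalization 3462 were higher and 4042 lower. After rescaling to 1000000 without features above 10000 FPKM, 3253 were higher and 4771 lower. The median difference of the members was -0.49, against -0.82 over all features tested.

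The called member was wu:fj16a03, whose testis minus ovary difference was -1.01 (SE 0.23, limma adjusted p = 0.00746, lower in 2 of 2 testis libraries). Relative to the median of all features its difference was -0.19. Its call was lost under median-of-ratios scaling, where the direction turned to 0.15 (limma adjusted p = 0.6), and the adjusted p over all alternatives ran between 0.00639 and 0.6. It was also lost without testis replicate 1, at -0.77, and without ovary replicate 2, at -0.92, where the size fell short of 1.

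EARS2 differed by -0.49 between testis and ovary (SE 0.164, limma adjusted p = 0.0325, lower in 2 of 2 testis libraries), short of the size needed for a call. Against the median of all features it stood at 0.32, and under median-of-ratios scaling the difference was 0.65 with the opposite sign (limma adjusted p = 0.0157). The fit also draws on the oocyte libraries, where the rule keeps the members' values low and so limits their replicate differences. With only testis and ovary in the fit, the limma adjusted p was 0.048 for EARS2 and 0.0135 for wu:fj16a03. Over the alternatives the limma adjusted p of EARS2 ran between 0.00952 and 0.608. Which organ holds more EARS2 RNA thus depended on the scaling.

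For ENSDARG00000100659 the difference of 0.36 was within the spread between replicates (SE 0.901, limma adjusted p = 0.736). A single ovary library decided it. Without ovary replicate 1 the testis minus ovary difference was -1.16, and without ovary replicate 2 it was 1.87. No p is given for these fits. With 1 ovary library left, the spread of this feature came from the testis and oocyte pairs alone. Both oocyte values were a listed 0. Over the alternatives that kept both libraries of each organ, the limma adjusted p of ENSDARG00000100659 ran between 0.179 and 0.915.

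**Figure D4:**
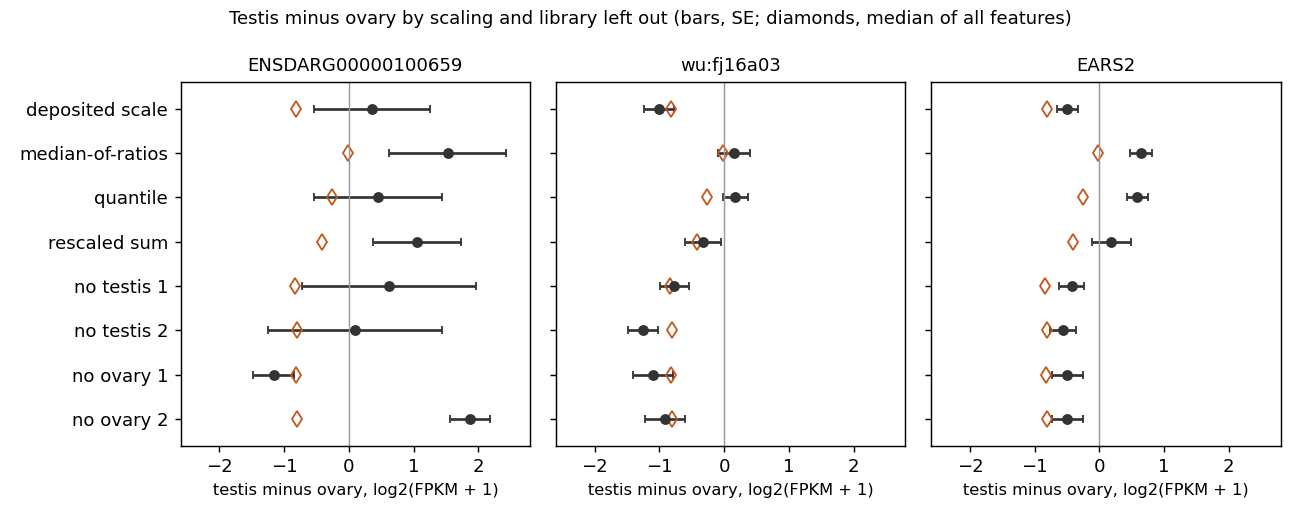
Testis minus ovary differences of the 3 members on the log2(FPKM + 1) scale, as filled points with bars of 1 SE, on the deposited scale, under 3 other scalings and with each testis or ovary library left out; open diamonds are the median of all features tested. The sign of EARS2 turns under each of the 3 scalings, and that of ENSDARG00000100659 without ovary replicate 1. That of wu:fj16a03 turns under median-of-ratios scaling and quantile normalization. A tissue with a library left out adds nothing to the spread behind the SE.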

How the data were processed

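The authors deposited FPKM values, with a column for each of the 6 libraries. Per the submitters' processing notes, TopHat, Bowtie2, Cuffnorm and the build GRCz10 were used; versions, annotation and any further scaling between libraries are not given in the sources used here. Per the labels' protocols, libraries were strand-specific and read as pairs of 76 bases; how overlapping genes were counted is not given. IDs were named through a gene name table, which held 26411 of 32253 features. No sequences were used here, so promoter motifs were not searched, and 1 gene of the EARS2 pathway is not reported here.

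FPKM values were tested as log2(FPKM + 1) for features at 1 FPKM or more in at least 2 libraries, with limma 3.58.1 in R 4.3.3 (a mean per tissue over all 6 libraries, eBayes with trend=TRUE, two-sided). The fit was checked on simulated data. Named features were the members, those nearest each threshold and list members by level. The members and lists were chosen with earlier results of these data known. Alternatives were another pseudocount, other filters, 3 scalings, other thresholds, a replicate block and each library left out.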

Additional observations from a re-analysis of the deposited data

How the results depend on the processing

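Of 132 combinations of 9 results with an alternative, 98 were rated unchanged. A difference had to keep its direction and side of the threshold, and a count had to stay within 1.5 times. The members' median had to move by less than 0.258, the median SD between their replicates. Other filters, the replicate block and other p thresholds leave the log2 differences as they are, so part of the 98 could not change. The total of 8262 calls between testis and ovary stayed within 1.5 times. Its split did not, with 3697 higher and 3136 lower in testis after median-of-ratios scaling, against 2251 and 6011 as deposited. The number of members called was 0 under median-of-ratios scaling, quantile normalization and rescaling to 1000000 without features above 10000 FPKM, 2 with an adjusted p alone, and 0 to 2 with a library left out. Members called lower numbered 0 under those 3 scalings, 2 with an adjusted p alone and 0 to 2 with a library left out, and members called higher 0 to 1. The members' median was 0.65, 0.45 and 0.18 under the 3 scalings in that order, and -1.1 to -0.42 with a library left out. For wu:fj16a03 the difference reversed to 0.15 and 0.18 under the first 2 of them, and for EARS2 to 0.65, 0.59 and 0.18. That of ENSDARG00000100659 reversed to -1.16 without ovary replicate 1 and was 1.87 without ovary replicate 2. These scalings raise testis values relative to ovary; which is closer to RNA amounts was not tested.

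The rule gave 6 features at a minimum of 10 FPKM and 2 at 40 FPKM, where EARS2 dropped out. It gave 9 with an oocyte limit of 2 FPKM and 2 with a limit of 0.5 FPKM, where wu:fj16a03 dropped out. Both counts of 2 were rated unchanged, although a member was lost each time. The rule gave 3 features after median-of-ratios scaling and 3 to 7 with a library left out. Leaving out a library can only add features. A minimum of 5 FPKM, chosen after seeing the data, gave 41. Replicate differences correlated across features at 0.243 for testis and ovary, -0.214 for testis and oocyte and -0.346 for ovary and oocyte. Such correlations cannot show how the libraries were collected, so whether replicate numbers pair them is undecided. With the replicate block 8217 features and 1 member were called. Depth is unknown, which limits statements on values under 1 FPKM.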

Other observations

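Leaving out ovary replicate 1 brought 4 features into the rule, and 3 of them had 1.46 FPKM or a listed 0 in that library. The trypsin gene prss59.1 had 25.6 and 77.9 FPKM in testis, 1.46 and 39.6 FPKM in ovary, and 0.669 and 0.215 FPKM in oocyte. The microRNA precursor dre-mir-30b had 259 and 739 FPKM in testis, was listed at 0 and 552 FPKM in ovary, and at 0 in both oocyte libraries. ENSDARG00000080351 had 25 and 46.3 FPKM in testis, was listed at 0 and 33.4 FPKM in ovary, and at 0 in both oocyte libraries. The other was acta2. Each of the 4 was also higher in replicate 2 than in replicate 1 of testis. In ovary that direction follows from how they were selected. Replicate differences of testis and ovary correlated at 0.243 across features, so the selection bears on the testis direction as well. The share of all features higher in testis replicate 2 is not given here.

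Pancreas transcripts in the dissected gonads differed widely in level. The elastase gene ela2 had 84.4 and 132 FPKM in testis, 0.438 and 7.28 FPKM in ovary, and 0.946 and 0.242 FPKM in oocyte, and prss1 had 51.9 and 189 FPKM in testis, 11.2 and 76.9 FPKM in ovary, and 2.1 and 0.57 FPKM in oocyte. Leaving out oocyte replicate 1 admitted spata6l, TAGLN and rgrb, and leaving out oocyte replicate 2 admitted ENSDARG00000104234, which was listed at 0 in oocyte replicate 1 and had 16.4 FPKM in oocyte replicate 2.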
